A study of Mus musculus with 17 samples.

Results

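The 8 genes examined were *Dbp*, *Tef*, *Hlf*, *Nfil3*, *Ciart*, *Bhlhe40*, *Bhlhe41* and *Rora*, the mouse transcription regulators through which the circadian clock drives its outputs. They were taken as a named list, by Ensembl gene identifier, and they are 8 of the 55401 genes in the files. RNA was sequenced from whole perigonadal white adipose tissue (pWAT) of 17 mice on the C57BL/6J background, 1 library per mouse, to ask how loss of the long noncoding RNA *U90926* alters this fat depot in each sex. The females comprised 5 WT mice with 5 U9-KO mice, the males 3 WT mice with 4 U9-KO mice, all on standard chow. The study's methods give an age of 16 weeks at collection, although it also reports body measurements of the cohort at later ages. The U9-KO mice were homozygous for a whole-body deletion that removes every exon of *U90926*, and the WT mice were littermates from crosses of heterozygotes. The time of day at which tissue was taken is not given in the sources used here, so a difference in clock phase between mice and a difference in clock gene level cannot be told apart in these values.

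The clock of each cell is a feedback loop in which CLOCK and BMAL1 (encoded by *Arntl*) activate genes that carry an E-box, among them the *Per* and *Cry* genes, whose products then switch CLOCK and BMAL1 off. DBP, TEF and HLF are related PAR bZIP activators that carry this rhythm to other genes through the D-box, and NFIL3 represses at the same element. CIART (CHRONO), BHLHE40 (DEC1) and BHLHE41 (DEC2) repress at the E-box, and RORA activates *Arntl* and *Nfil3* through the ROR element, where the NR1D proteins repress. Adipose tissue has its own clock, and output genes such as *Dbp* differ widely in RNA level between times of day.

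The promoters show how directly these elements are written beside the genes that the results turn on. The 250 bases before the RefSeq start (build GRCm38.p6, RefSeq promoter table) were searched on both strands for the E-box CACGTG, the D-box TTATGTAA or TTACGTAA and the ROR element TAGGTCA or TGGGTCA. Of the 8 genes 7 were matched, with 8 promoters since *Tef* has 2 starts, and *Bhlhe40* was not. Below, matches stand in capitals and every other base in lower case, 5′ to 3′ on the strand of the gene.
Ciart, chr3:95882229-95882478, minus strand: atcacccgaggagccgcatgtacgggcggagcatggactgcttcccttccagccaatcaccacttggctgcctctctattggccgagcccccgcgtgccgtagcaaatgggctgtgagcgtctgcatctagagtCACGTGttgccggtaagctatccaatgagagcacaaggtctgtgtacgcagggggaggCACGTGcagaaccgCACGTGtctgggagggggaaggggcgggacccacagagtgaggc
Tef first start, chr15:81802423-81802672, plus strand: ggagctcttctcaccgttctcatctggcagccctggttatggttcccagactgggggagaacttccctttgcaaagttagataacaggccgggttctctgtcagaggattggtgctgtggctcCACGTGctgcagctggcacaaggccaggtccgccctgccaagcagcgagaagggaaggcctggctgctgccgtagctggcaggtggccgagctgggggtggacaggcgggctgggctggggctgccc
Tef second start, chr15:81811164-81811413, plus strand: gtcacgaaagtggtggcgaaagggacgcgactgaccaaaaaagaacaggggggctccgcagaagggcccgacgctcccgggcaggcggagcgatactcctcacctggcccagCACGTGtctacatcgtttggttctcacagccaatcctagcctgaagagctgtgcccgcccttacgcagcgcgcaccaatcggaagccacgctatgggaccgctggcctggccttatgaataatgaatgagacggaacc
Nfil3, chr13:52981040-52981289, minus strand: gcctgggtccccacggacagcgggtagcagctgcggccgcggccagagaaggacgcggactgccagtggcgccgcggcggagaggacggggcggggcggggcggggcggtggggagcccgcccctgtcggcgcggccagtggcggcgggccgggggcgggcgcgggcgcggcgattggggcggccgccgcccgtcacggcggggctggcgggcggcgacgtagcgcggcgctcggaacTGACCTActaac
Dbp, chr7:45704997-45705246, plus strand: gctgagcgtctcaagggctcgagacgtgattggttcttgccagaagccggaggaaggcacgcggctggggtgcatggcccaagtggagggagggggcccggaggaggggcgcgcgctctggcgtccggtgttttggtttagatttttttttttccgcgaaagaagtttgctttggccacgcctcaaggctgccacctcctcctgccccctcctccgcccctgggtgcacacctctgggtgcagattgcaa
The *Ciart* promoter held 3 E-boxes, beginning 116, 58 and 44 bases before the start. Each *Tef* promoter held 1 E-box, at 127 and 138 bases before its start, and *Bhlhe41*, not printed, held 1 at 153 bases. In *Nfil3* the capitals are a ROR element on the other strand, 12 bases before the start. These RefSeq starts differ from the gene bounds given below. By those bounds both *Tef* windows lie within *Tef*, and the windows of *Ciart*, *Dbp*, *Nfil3* and *Bhlhe41* reach into their genes. Among all 32817 promoters of this length in the table, 6.02% held the E-box, 0.929% a D-box and 5.39% a ROR element. No match was found in *Dbp*, *Hlf* or *Rora*, which says only that these letters are not in this window.

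The values are read counts per gene, scaled by the authors for library size and rounded, and are called normalized counts here. They summed to between 20243688 and 28620744 per library. *U90926* was at 1 in WT female 3 and WT male 2 and at 0 in the other 6 WT and all 9 U9-KO libraries, so at this depth it does not test the genotype labels. The summed adipocyte markers, 6 genes such as *Adipoq* and *Plin1*, lay between 152428 and 362286 in the female libraries, and those of the males between 386820 and 506999. Ovary markers, summed over 8 genes, ran from 2418 to 91649 in the female mice but only from 200 to 371 in the male mice, while the epididymal genes *Lcn5* and *Crisp1* were at 0 in every male. The samples are bulk tissue, so fewer cells of a type and less RNA per cell cannot be told apart. Size factors appear to have been set within each sex, and the median ratio of a library to the mean of all 17 was 1.03 to 1.06 for each female and 0.948 to 0.963 for each male, so levels of the 2 sexes are only described side by side.

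All 8 genes were measured in every mouse and passed the filter on low values, a summed value of at least 10 over the libraries compared. Per kilobase of exon, the median level over the 17 mice was highest for *Nfil3* at 273 normalized counts per kb, followed by *Tef* at 217 and *Bhlhe40* at 136. *Rora* at 66.8, *Dbp* at 55.1, *Hlf* at 38.9 and *Bhlhe41* at 35.1 lay lower, and *Ciart* was lowest at 14.2. Over all 17 mice, which pools the separately scaled sexes, *Dbp* had the largest ratio of highest to lowest mouse, 4.42, and *Rora* the smallest, 2.11. Within the sexes *Dbp* was not the most variable. In females the ratio was 3.54 for *Bhlhe41*, 3.12 for *Ciart* and 2.97 for *Dbp*, and in males 3.59 for *Nfil3* and 3.54 for *Dbp*.

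**Figure D1:**
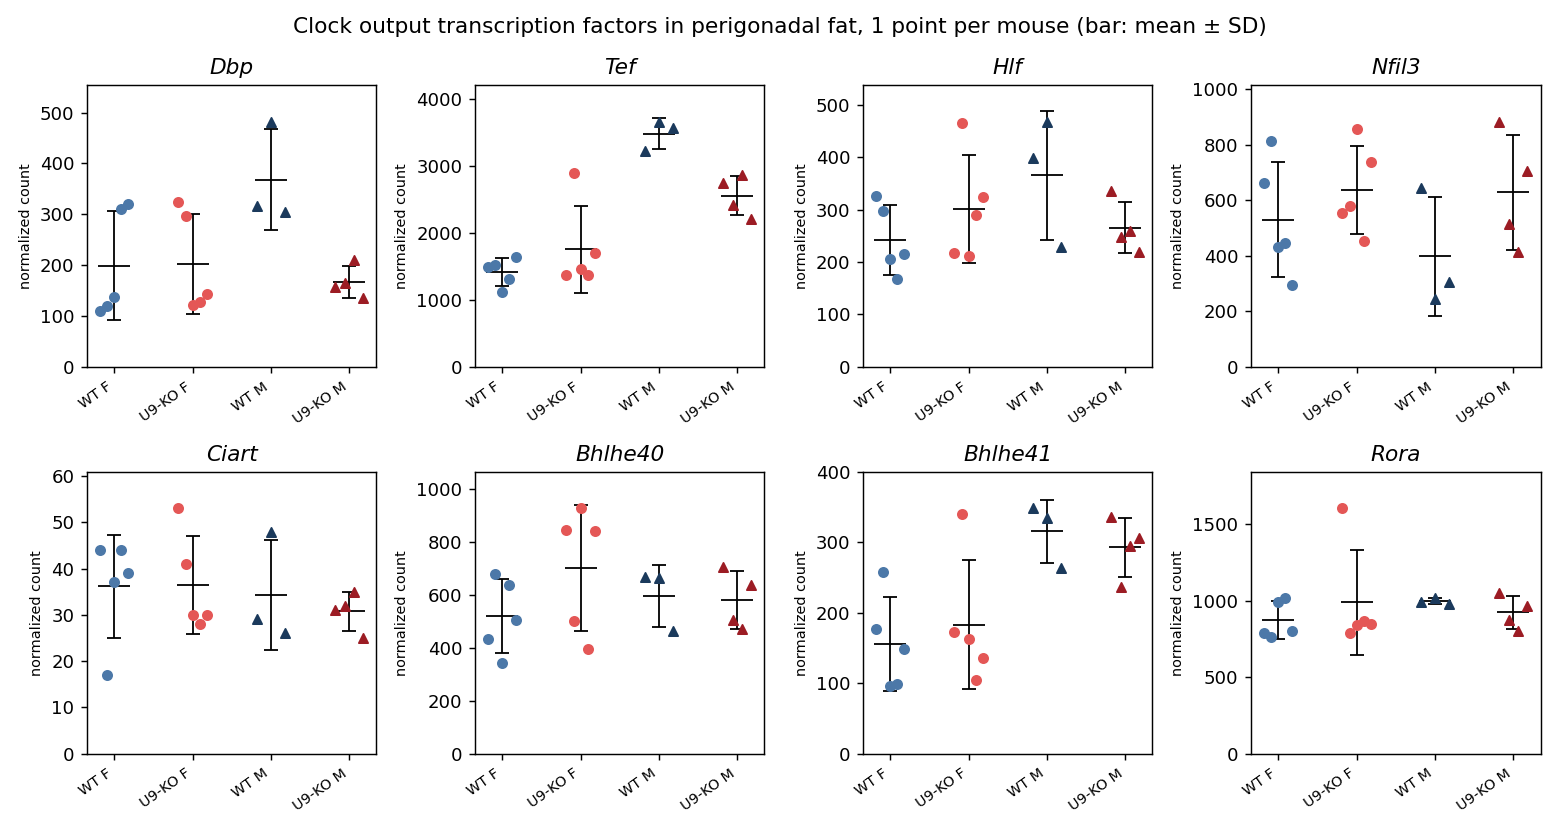
Normalized count (y axis, linear from 0) of each of the 8 genes in WT and U9-KO females (circles) and males (triangles), 1 point per mouse, with bars for the mean ± SD. The 4 U9-KO males lie between 136 and 211 for *Dbp*, below all 3 WT males, while the females of both genotypes fall into a low and a high range.

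No member passed the test between genotypes in either sex, and the smallest unadjusted p-values among the 8 were those of the PAR bZIP genes *Dbp* and *Tef* in males, which were lower in every U9-KO male than in every WT male. The tests were limma's on log2(normalized count + 1), with Benjamini-Hochberg adjustment over all genes. At an adjusted p under 0.05, 0 of 8 members and 0% of all genes were called in females, in males, in both sexes together and for the difference between the sexes. The study itself, using DESeq2, reported genes under this threshold in females and more of them in males, and none with the sexes together. The 0% thus holds for this fit on scaled, rounded values. At an unadjusted p under 0.05, 0 of 8 members passed in females beside 2.23% of the 24825 genes tested, and 2 of 8 in males beside 7.60% of 21930. For the 2 sexes together 1 of 8 passed beside 4.02% of 26289 genes, and for the difference between the sexes 2 of 8 beside 3.46%. By direction, U9-KO was above WT for 8 of 8 members in females (median log2 fold change 0.24), beside 12407 of all 24825 genes tested. In males U9-KO was above WT for 1 of 8 (median -0.12), beside 10995 of all 21930 genes, whose median was 0.00. With single mice left out, *Dbp*, *Ciart*, *Bhlhe41* and *Rora* changed sign in females, and *Bhlhe40* and *Ciart* in males. The groups did not overlap for 0 of 8 members in females (0.238% of all genes) and for 2 of 8 in males (7.60% of all genes). Both of those were lower in U9-KO, a pattern that 3.80% of all genes showed in males. Nothing beyond these counts is read from 8 genes chosen as a list.

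**Figure D2:**
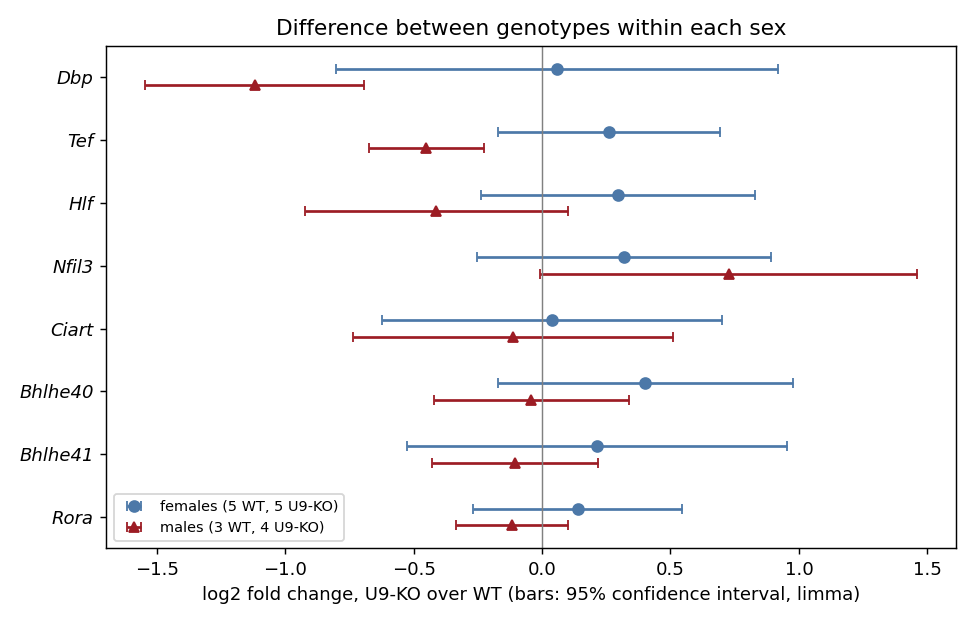
Log2 fold change of U9-KO over WT (x axis, 0 is no difference) with its 95% confidence interval from limma, for each of the 8 genes in females (circles) and males (triangles). The male intervals of *Dbp* and *Tef* lie below 0 before adjustment over all genes, and every female interval includes 0.

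*Dbp*, the PAR bZIP gene with the widest range, lies at chr7:45705088-45710203 on the plus strand of GRCm38 (ENSMUSG00000059824). In males, *Dbp* was at 317, 482 and 305 normalized counts in the WT mice and at 157, 165, 211 and 136 in the U9-KO mice. The highest U9-KO male was thus below the lowest WT male. The means were 368 ± 98.9 (SD, n = 3) in WT and 167 ± 31.6 (SD, n = 4) in U9-KO males. The log2 fold change was -1.12 (SE 0.19, 95% interval -1.55 to -0.69), with an unadjusted p of 0.000162 by limma, the third smallest among the genes tested in males, and an adjusted p of 0.612. The smallest adjusted p of any gene in males was the same 0.612. With each male left out in turn the log2 fold change stayed between -1.24 and -0.91. Without WT male 1 the adjusted p of *Dbp* was 0.0533 by limma, and without each other male it lay between 0.600 and 0.855. In the fit without WT male 1, 3345 genes had an unadjusted p under 0.05, beside 1667 with all males. WT male 2, which had the highest *Dbp*, also had the lowest adipocyte marker sum of the males, 386820, and the part of tissue make-up in the result was not tested.

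In females, *Dbp* was at 109, 119, 137, 310 and 321 in the WT mice and at 324, 296, 122, 128 and 144 in the U9-KO mice. Each genotype held mice in a low range and mice in a high range, with no female between 144 and 296. WT mice 4 and 5 and U9-KO mice 1 and 2 were in the high range, and the genotypes overlapped fully. The means of 199 ± 107 and 203 ± 98.7 (SD, n = 5 each) therefore describe few of the mice. In the high range, U9-KO female 1 and WT female 4 had the highest ovary marker sums of all mice (91649 and 72631) and the lowest adipocyte marker sums (152428 and 171644). U9-KO female 2 and WT female 5 had ovary sums of 2713 and 19578 and adipocyte sums of 308054 and 279547. The part of tissue make-up in the *Dbp* of these mice was not tested. The log2 fold change was 0.06 (SE 0.39, 95% interval -0.80 to 0.92, adjusted p = 1 by limma), an interval that still holds differences as large as -0.80 or 0.92. The sign of this value was not stable, since it ran from -0.14 without U9-KO female 1 to 0.27 without WT female 5 and was negative in 5 of 10 fits with 1 mouse left out. The change in males minus that in females was -1.18 (SE 0.53, 95% interval -2.28 to -0.07), with an unadjusted p of 0.0389 and an adjusted p of 1 by limma. With each mouse left out it lay between -1.39 and -0.97, and without WT male 2 its unadjusted p was 0.111 and its adjusted p 1 by limma. In order of mean level the groups were WT males, U9-KO females, WT females and U9-KO males, and the only neighbours or other pair without overlap were the WT and U9-KO males. *Dbp* shares bases with the end of *Sphk2* on the opposite strand (median 803 normalized counts), and the strand setting of the counting is not given in the sources used here.

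*Tef*, the second PAR bZIP activator, lies at chr15:81802421-81826863 on the plus strand (ENSMUSG00000022389). In males, *Tef* was at 3233, 3666 and 3566 in WT mice and at 2743, 2417, 2871 and 2218 in U9-KO mice. As with *Dbp*, every U9-KO male was below every WT male. The WT mean was 3488 ± 227 (SD, n = 3) and the U9-KO mean 2562 ± 299 (SD, n = 4). On the log2 scale the difference was -0.45 (SE 0.10, 95% interval -0.67 to -0.23, unadjusted p = 0.00114, adjusted p = 0.612 by limma). In females, *Tef* was at 1497, 1522, 1115, 1315 and 1638 in WT mice and at 1375, 2892, 1458, 1367 and 1704 in U9-KO mice. U9-KO female 2 stood far above the others and the rest of the females overlapped. The female log2 fold change was 0.26 (SE 0.20, 95% interval -0.17 to 0.69, adjusted p = 1), and it was 0.065 without U9-KO female 2. Male minus female gave -0.71 (SE 0.26, 95% interval -1.27 to -0.15, unadjusted p = 0.0153, adjusted p = 1 by limma). All WT females were below all males, a step also seen at the 1 gene *Bhlhe41* among the others, where all WT females were below all WT males, and these are levels set across separately scaled sexes.

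*Hlf*, the third PAR bZIP activator, lies at chr11:90336536-90390895 on the minus strand (ENSMUSG00000003949). It was at 399, 468 and 229 in WT males and at 336, 248, 260 and 220 in U9-KO males. WT male 3, at 229, lay inside the U9-KO range, so the groups overlapped. The male log2 fold change was -0.41 (SE 0.23, 95% interval -0.92 to 0.10, adjusted p = 0.687 by limma), and it ran from -0.72 without WT male 3 to -0.20 without WT male 2. In females, *Hlf* was at 326, 297, 205, 167 and 215 in WT mice and at 217, 466, 211, 289 and 324 in U9-KO mice. The female groups overlapped, with U9-KO female 2 highest here as it was for *Tef*. The female log2 fold change was 0.30 (SE 0.24, 95% interval -0.24 to 0.83, adjusted p = 1), and 0.12 without U9-KO female 2 and 0.17 without WT female 4. The difference between the sexes had an unadjusted p under 0.05 for *Dbp* and *Tef* and of 0.0755 for *Hlf*.

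*Nfil3*, the repressor that competes with the PAR bZIP factors for the D-box, lies at chr13:52967209-52981073 on the minus strand (ENSMUSG00000056749). In males it was at 644, 246 and 304 in WT mice and at 883, 513, 414 and 704 in U9-KO mice. WT male 1 lay within the U9-KO range and the other two WT males below it. The male log2 fold change was 0.73 (SE 0.33, 95% interval -0.01 to 1.46, unadjusted p = 0.0516, adjusted p = 0.654 by limma). It depended on single mice, at 1.14 without WT male 1 and 0.45 without WT male 2. In females, *Nfil3* was at 664, 815, 431, 445 and 295 in WT mice and at 553, 581, 855, 454 and 739 in U9-KO mice, with the groups overlapping. The female log2 fold change was 0.32 (SE 0.26, 95% interval -0.25 to 0.89), ranging from 0.13 without WT female 5 to 0.49 without WT female 2. Over both sexes with sex as a term it was 0.48 (SE 0.22, unadjusted p = 0.0440, adjusted p = 0.938 by limma), and *Nfil3* was the 1 member with an unadjusted p under 0.05 there.

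*Ciart*, a repressor of CLOCK and BMAL1 and the least abundant of the 8, lies at chr3:95878503-95882251 on the minus strand (ENSMUSG00000038550). It was at 29, 48 and 26 in WT males and at 31, 32, 35 and 25 in U9-KO males. The U9-KO values lay around the lower part of the WT range. In females it was at 44, 17, 37, 44 and 39 in WT mice and at 53, 41, 30, 28 and 30 in U9-KO mice, overlapping again. The log2 fold change was -0.11 (95% interval -0.74 to 0.51) in males and 0.04 (95% interval -0.62 to 0.70) in females. The antisense gene *C920021L13Rik* spans *Ciart* on the opposite strand with a median of 50 normalized counts, and without a known strand setting the reads of the pair cannot be separated here.

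*Bhlhe40* and *Bhlhe41* encode the E-box repressors DEC1 and DEC2, both on chromosome 6, at chr6:108660629-108666925 (plus strand, ENSMUSG00000030103) and chr6:145858243-145865558 (minus strand, ENSMUSG00000030256). *Bhlhe40* was at 669, 663 and 463 in WT males and at 706, 504, 473 and 639 in U9-KO males. In females it was at 433, 678, 343, 640 and 506 in WT mice and at 848, 502, 928, 396 and 842 in U9-KO mice. The 3 U9-KO females at 842 or more exceeded every WT female while U9-KO female 4 was near the bottom of the WT range, so the groups overlapped. The log2 fold change was 0.40 in females (SE 0.26, 95% interval -0.17 to 0.98) and -0.04 in males (95% interval -0.42 to 0.34). Without U9-KO female 4 the female value was 0.59, with an unadjusted p of 0.0286 and an adjusted p of 0.872 by limma, while it was 0.26 without WT female 3 and 0.28 with U9-KO female 3 left out. *Bhlhe41* was at 348, 334 and 264 in WT males and at 336, 236, 294 and 306 in U9-KO males. In females it was at 177, 258, 96, 99 and 148 in WT mice and at 173, 340, 162, 104 and 136 in U9-KO mice. Both sexes overlapped between genotypes, with log2 fold changes of -0.11 (95% interval -0.43 to 0.22) in males and 0.21 (95% interval -0.53 to 0.95) in females.

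*Rora*, the activator at the ROR element, lies at chr9:68653786-69388246 on the plus strand (ENSMUSG00000032238) and was the steadiest of the 8. It was at 992, 1017 and 980 in WT males and at 1052, 873, 802 and 965 in U9-KO males. In females it was at 790, 761, 993, 1016 and 800 in WT mice and at 1602, 790, 840, 868 and 849 in U9-KO mice. U9-KO female 1 stood alone at 1602, and all the other mice lay between 761 and 1052. That mouse also had the highest ovary marker sum, 91649, and the lowest adipocyte marker sum, 152428, and their part in its *Rora* level was not tested. The log2 fold change was -0.12 (95% interval -0.34 to 0.10) in males and 0.14 (95% interval -0.27 to 0.54) in females.

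The order of the group means differed from gene to gene. *Tef* was highest in WT males, then U9-KO males, U9-KO females (1759 ± 648, SD, n = 5) and WT females (1417 ± 205). *Hlf* ran from WT males (365 ± 123, SD, n = 3) through U9-KO females (301 ± 104, n = 5) and U9-KO males (266 ± 49.6, n = 4) to WT females (242 ± 66.7, n = 5). *Bhlhe41* was at 315 ± 45.0 in WT males and 293 ± 41.9 in U9-KO males, above 183 ± 91.7 in U9-KO females and 156 ± 66.6 in WT females. The 3 PAR bZIP genes, *Bhlhe41* and, by the values given below, *Rora* had their highest mean in WT males. *Nfil3* had its lowest mean there, 398 ± 215, below 530 ± 207 in WT females, 628.5 ± 208 in U9-KO males and 636 ± 159 in U9-KO females. *Bhlhe40* was at 703 ± 237 in U9-KO females, 598 ± 117 in WT males, 580.5 ± 110.4 in U9-KO males and 520 ± 140.1 in WT females. *Ciart* was nearly level, from 36.4 ± 10.6 in U9-KO females through 36.2 ± 11.2 in WT females and 34.3 ± 11.9 in WT males to 30.8 ± 4.19 in U9-KO males. *Rora* ran from 996 ± 18.9 in WT males and 989.8 ± 343 in U9-KO females to 923 ± 109 in U9-KO males and 872 ± 122 in WT females. Neighbours in these orders overlapped in every case but the WT and U9-KO males for *Tef*. These means set the sexes side by side although they were scaled separately, and no test was made between them.

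The core clock genes were given as a list of 11, which gives the setting of the output genes. None passed at an adjusted p under 0.05 in either sex. In males 5 were higher and 6 lower in U9-KO, with a median log2 fold change of -0.17. At an unadjusted p under 0.05 by limma there were 2 higher and 2 lower of the 11, beside 7.60% of all 21930 genes tested. The 2 higher were *Arntl*, the BMAL1 gene, at 0.45 (unadjusted p = 0.0270, adjusted p = 0.621 by limma), and *Cry1*, a CLOCK and BMAL1 repressor, at 0.48 (unadjusted p = 0.0431, adjusted p = 0.639 by limma). The 2 lower were *Per3* at -0.66 (SE 0.14, unadjusted p = 0.000656, adjusted p = 0.612 by limma) and *Nr1d2*, the REV-ERBβ gene, at -0.71 (SE 0.18, unadjusted p = 0.00322, adjusted p = 0.612 by limma), the last of which was named after its values were seen. *Per3* was at 1476, 2100 and 1813 in WT males and at 1236, 1199, 1168 and 913 in U9-KO males, again with no overlap. *Npas2*, a CLOCK paralogue, was 0.50 higher in log2 units (unadjusted p = 0.0814), and *Per1* at -0.22, *Per2* at -0.26 and *Nr1d1*, the REV-ERBα gene, at -0.35 were lower, none past an unadjusted p of 0.05. In females 8 of the 11 were higher and 3 lower, with a median of 0.12 and none at an unadjusted p under 0.05, *Arntl* being at -0.01 and *Per3* at 0.33. The difference between the sexes in *Per3* was -0.995 (95% interval -1.50 to -0.49, unadjusted p = 0.000605, adjusted p = 1 by limma).

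A list of 6 clock-controlled targets, among them the deubiquitinase gene *Usp2* and the deadenylase gene *Noct*, had none past an unadjusted p of 0.05 in either sex. In males 2 were higher and 4 lower (median -0.03), with *Usp2* at -0.18 and *Noct* at 0.33, and in females 2 were higher and 4 lower (median -0.04). Of 7 glucocorticoid and stress responsive genes, the U9-KO males had 2 higher and 5 lower (median -0.20). Of the lower ones 3 had an unadjusted p under 0.05, beside 7.60% of all genes tested in males in either direction. They were *Tsc22d3* (GILZ) at -0.20 (unadjusted p = 0.0391, adjusted p = 0.631 by limma), *Zbtb16* and *Sgk1*. *Zbtb16* was at -0.82 (unadjusted p = 0.00206, adjusted p = 0.612 by limma). *Sgk1* was at -0.34 (unadjusted p = 0.0136, adjusted p = 0.612 by limma). *Zbtb16* and *Sgk1* were named after their values were seen. In females 5 were higher and 2 lower (median 0.17), 2 of the higher ones with an unadjusted p under 0.05, beside 2.23% of all genes tested in females. These 2, also named after their values were seen, were *Fos* at 0.77 and *Egr1* at 0.73 (unadjusted p = 0.0151 and 0.0496 by limma). *Fkbp5*, an FK506-binding protein gene induced by glucocorticoids, was at -0.16 in males and 0.06 in females.

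**Figure D3:**
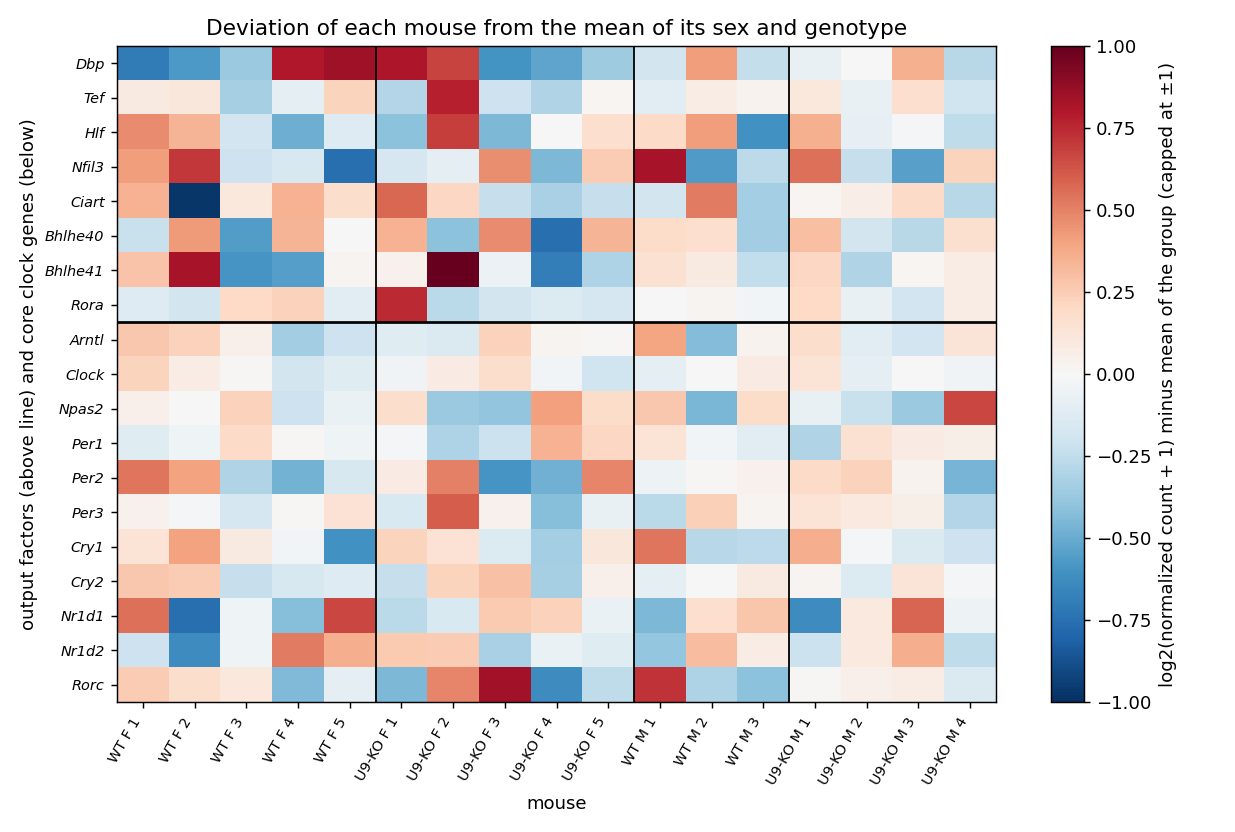
Deviation of each mouse (columns) from the mean of its own sex and genotype, in log2(normalized count + 1), for the 8 output genes above the line and the 11 core clock genes below it (colour scale limited to ±1). WT females 4 and 5 and U9-KO females 1 and 2 are high for *Dbp* and *Nr1d2* and low for *Arntl*.

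The mice of one group differed widely in *Dbp*, and *Arntl* and *Nr1d2*, from the 11 core clock genes, are set beside it here. With group means removed, r with *Dbp* over the 17 mice was -0.78 for *Arntl* and 0.84 for *Nr1d2*. For each other core clock gene it lay between -0.44 (*Clock*) and 0.455 (*Per3*), with *Nr1d1* at 0.02 and *Per2* at -0.01. These values pool the separate female ranges of *Dbp* and are a description only. With the 10 females in order of increasing *Dbp*, from 109 to 324, *Arntl* was at 951, 927, 919, 798, 820, 789, 707, 622, 684 and 722. The 4 lowest *Arntl* values belonged to the 4 mice with the highest *Dbp*, 2 of each genotype. In the same order *Nr1d2*, chosen after its values were seen, was at 881, 658, 882, 1057, 989, 1018, 1321, 1460, 1307 and 1329, so its 4 highest values were in those mice. With the 7 males in order of increasing *Dbp*, from 136 to 482, *Arntl* was at 1131, 1172, 961, 908, 781, 998 and 564 and *Nr1d2* at 637, 654, 812, 977, 1305, 947 and 1534. The first 4 of these males are U9-KO and the last 3 WT, and among the WT males neither gene ran in 1 direction along *Dbp*. No hour of collection is known for any mouse, and its part in these orders was not tested.

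The relation of each other member to *Dbp* was computed with the mean of each sex and genotype removed. The planned test took all 17 mice, with females and males alone as alternatives. *Ciart* had r = 0.66 over the 17 mice (adjusted permutation p = 0.047) and 0.62 in the 10 females (permutation p = 0.0747, adjusted 0.317). The females fall into separate ranges of *Dbp*, of 6 and 4 mice, so that an r pooled over them is not read as a relation, and none was computed within either range. In the 7 males *Ciart* followed *Dbp*, with Pearson's r of 0.94 and Spearman's rho of 0.964, each with a two-sided exact permutation p of 0.00694, the smallest that 144 arrangements allow. Adjusted over the 7 relations the p was 0.0486. Without the 2 males farthest from the median of *Dbp*, WT male 2 and U9-KO male 3, r was 0.97 with an exact permutation p of 0.0833, the smallest that 5 such mice can give. Within the U9-KO males *Ciart* was 25, 31, 32 and 35 in order of *Dbp*, and within the WT males 26, 29 and 48. In the same order the summed adipocyte markers were 506999, 495131, 439348 and 449194 in the U9-KO males and 460851, 484269 and 386820 in the WT males. With group means removed, their r over the 7 males was -0.866 with *Dbp* and -0.879 with *Ciart*, so this tissue marker moved against both genes, and its part in their relation was not tested. *Tef* had r = 0.68 (exact permutation p = 0.0833, adjusted 0.292) and *Nfil3* r = -0.68 (exact permutation p = 0.188, adjusted 0.438). *Hlf* at 0.54, *Rora* at -0.41, *Bhlhe41* at 0.12 and *Bhlhe40* at -0.09 did not pass either.

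**Figure D4:**
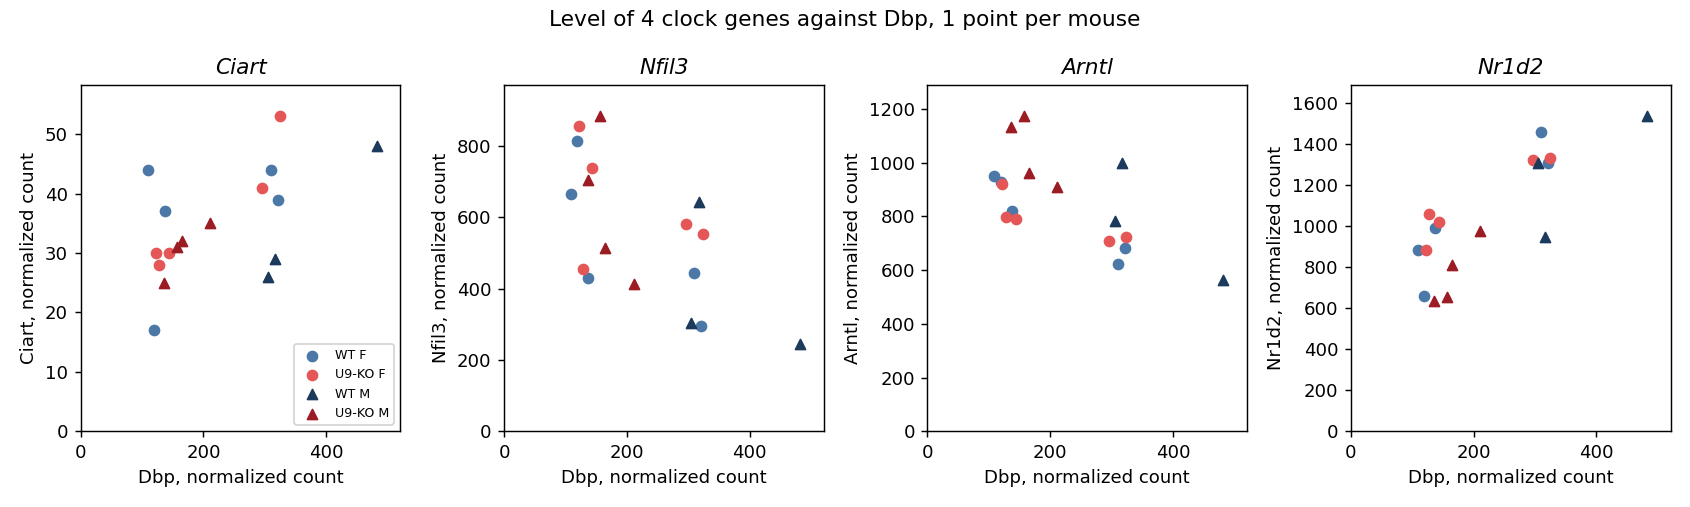
Normalized count of *Ciart*, *Nfil3*, *Arntl* and *Nr1d2* (y axes) against that of *Dbp* (x axes) in the 17 mice, by sex and genotype, all axes linear from 0. In the WT male with the highest *Dbp*, at 482, *Arntl* is lowest at 564 and *Nr1d2* highest at 1534, and the females stand in a low and a high range of *Dbp*.

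Among 13750 genes with a mean of at least 50, the genes whose levels were most like each member over the 17 mice (Pearson's r, group means removed) are given as a description with no test. These values pool the separate ranges of *Dbp* in females. For *Dbp* they were *Fbxo38* (0.89), *Sin3a* (0.85) and *Ero1lb* (0.84), and the most opposite were *Pnp2* (-0.86), *Pnp* (-0.84) and *Gm10762* (-0.82). For *Tef* they were *Zfp273* (0.87), *Per3* (0.85) and *Hcn2* (0.79), so that the clock gene *Per3* was among the 3 genes most like *Tef*. For *Hlf* they were *Eif5a2* (0.83), *Wscd2* (0.83) and *Mn1* (0.82), for *Nfil3* *Mapk6* (0.89), *Gtf2h1* (0.89) and *Cox18* (0.88), and for *Ciart* *Tra2a* (0.78), *Adam17* (0.77) and *Lin9* (0.77). For *Bhlhe40* they were *Mcts2* (0.91), *Ints11* (0.90) and *Szrd1* (0.89), for *Bhlhe41* *Bid* (0.91), *Tatdn2* (0.91) and *Taf3* (0.89), and for *Rora* *Tpd52l1* (0.91), *Far1* (0.90) and *Lpin2* (0.90). No core clock gene was among the 3 most like any member but *Tef*, though the cut at 3 leaves out close ones. *Nr1d2* had r = 0.841 with *Dbp*, beside 0.843 for *Ero1lb*, and *Arntl* had 0.83 with *Nfil3*.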

How the data were processed

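RNA from whole pWAT was sequenced as stranded libraries, 1 per mouse. The authors trimmed reads with trim_galore, aligned them with STAR (2.7.3a in the submitters' processing notes, build GRCm38), summarized overlaps with genes in Union mode (summarizeOverlaps) and used DESeq2 (1.28.1 in the same notes). The deposited value of a gene is a score, its read count divided by a size factor and rounded to a whole number, with factors apparently set per sex. They are not raw counts, so no count model was run, and read depth is unknown. In 2 male libraries the column name and the sample label give different replicate numbers, and the label was followed.

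Identifiers were named with GENCODE M21 (55141 of 55401 matched). Genes with a summed value of at least 10 were tested with limma (3.58.1, R 4.3.3; lmFit, eBayes with trend) on log2(value + 1), and p-values were adjusted by Benjamini-Hochberg over all genes at 0.05. Females, males, both with sex as a term, and the sex by genotype interaction were fitted. The fits were tested on simulated data in which 200 genes had known changes. Relations to *Dbp* used permutations within groups in Python 3.11.15 with scipy 1.17.1. No pair of the 29 within-group pairs held near-identical libraries, each differing in at least 24469 genes. Alternatives were another pseudocount, filter, trend, scaling, a replicate block and each library left out. The text names the 8 genes, genes listed for the core clock, clock targets and glucocorticoid response, and the 3 genes most like each member. The members and lists were chosen with earlier results of these data known. The series-wide table repeats the single-library values and was not used.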

Additional observations from a re-analysis of the deposited data

Results flagged for a closer look

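In 3 of 24 groups of 4 or 5 mice, 1 mouse lay far from the others by Dixon's criterion, where chance would give about 1.2. *Tef* was at 2892 normalized counts in U9-KO female 2 and between 1367 and 1704 in the other 4 U9-KO females. *Ciart* was at 17 in WT female 2 and between 37 and 44 in the other 4 WT females. *Rora* was at 1602 in U9-KO female 1 and between 790 and 868 in the other 4 U9-KO females. None of these mice was left out of a reported value.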

How the results depend on the processing

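The lower *Dbp* and *Tef* of U9-KO males kept direction under each alternative run. The number of genes called at an adjusted p under 0.05 was 0 in each comparison and depended on the filter: with no filter on low values it was 2 in females, 16 in males, 1 in both sexes and 3 for males minus females. With no variance trend it was 1 in females, 1 in males and 1 in both sexes, and with a pseudocount of 0.5 it was 1 in both sexes. With each male left out in turn it was 0 to 71 in males, 71 being without WT male 1, where *Tef* had an adjusted p of 0.0865 and *Dbp* 0.0533. Members past an unadjusted p of 0.05 in both sexes went from 1 to 0 with no filter, with at least 10 in every library, with no trend and with a robust fit, and for males minus females from 2 to 1 with no filter, no trend, the replicate block and quantile scaling. Leaving out single mice gave 0 to 1 in females, 1 to 3 for males minus females and 0 to 2 in both sexes. The cause was not tested.

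Estimates near 0 turned sign. Over both sexes *Tef* was 0.0029 with a replicate block and *Ciart* 0.010 with quantile scaling. With single mice left out, in males *Bhlhe40* ran from -0.22 to 0.049 and *Ciart* from -0.28 to 0.15. In females *Bhlhe41* ran from -0.040 to 0.42, *Ciart* from -0.21 to 0.12, *Dbp* from -0.14 to 0.27 and *Rora* from -0.049 to 0.21. In both sexes *Bhlhe41* ran from -0.069 to 0.19, *Ciart* from -0.17 to 0.076, *Hlf* from -0.11 to 0.12, *Rora* from -0.079 to 0.067 and *Tef* from -0.16 to 0.026, and for males minus females *Ciart* from -0.32 to 0.11. Replicate numbers are shared by WT and U9-KO mice but did not pair them: same-numbered mice had correlations of -0.43 to 0.12 in their deviations. With the replicate block *Dbp* in males was -1.03 and 0 genes were called.

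Over all 17 mice, a pooling of the separate female ranges, 1 relation with *Dbp* passed (*Ciart*, r = 0.66, adjusted permutation p = 0.047). The number was 0 by Spearman's rho, without the 2 mice farthest from the median, and in females alone. It was also 0 in males without their 2 farthest, a setting not planned beforehand. No relation could pass there, since 0.0833 is the smallest exact permutation p that those 5 mice allow. *Hlf*, at -0.09, became 0.11 without the 2 farthest mice, 0.54 in males and 0.47 in males without 2. *Bhlhe40*, at 0.11, became -0.0031, -0.095 and -0.17. *Rora*, at 0.37, became -0.41 in males and -0.27 in males without 2, where *Bhlhe41*, at 0.10, was -0.27. Library sizes in reads are unknown, which limits what can be said of low genes such as *Ciart*.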
